A study of Mus musculus with 3 samples.

Results

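The cells described here were 68 single cells of 1 library of mouse bone-lining cells (BLCs, which cover the surface of bone) that carried transcripts of Nos2 together with those of Cxcl2 or Mmp3. They were chosen by their own measured counts: at least 1 unique molecular identifier (UMI, a tag that marks 1 captured RNA molecule) of Nos2, at least 1 UMI of Cxcl2 or Mmp3, no UMI of Ptprc, which encodes CD45, and fewer than 10 UMIs of Cxcl12. The rule was applied to the 2527 barcodes of replicate 1 with 200 or more detected genes and no more than 20% of UMIs from mitochondrial genes, so the 68 members made up 2.69% of them (exact binomial 95% interval 2.10% to 3.40%). The same rule found 9 of 6725 kept barcodes in replicate 2 and 22 of 10230 in replicate 3, 99 cells of 19482 in all. The high levels of Nos2, Cxcl2 and Mmp3 in the members and the absence of Ptprc are therefore the choice itself and not a result.

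All 3 libraries came from wild-type (WT) mice and form 1 group per the labels, Alcam_BLC, with no treatment, and the labels give neither age nor sex nor the number of animals pooled. Femora, tibias and iliac bones were flushed, cut up and digested with collagenase, and Alcam+ cells that lacked CD45, Ter119, CD31 and Sca-1 were sorted before 3′ droplet sequencing. The labels give the tissue as bone marrow, although the cells came from the bone that was left after flushing. Replicate 1 stood apart from the others before any comparison: 4.99% of its kept barcodes held a Nos2 UMI against 0.595% and 1.01% in replicates 2 and 3, and Col2a1, the main cartilage collagen, was at 327 counts per 1000000 UMIs (CPM, summed over the kept barcodes) against 27308 and 22848. Its kept barcodes had a median of 5663 UMIs, against 10034 and 5995. The libraries shared 5, 9 and 28 barcode sequences pairwise, and no member of replicate 1 was among them. No test was made, because the cells were chosen by values of the same libraries and most of them came from 1 library. Intervals on CPM are exact Poisson and those on ratios are exact conditional intervals, and both cover counting error only, not the spread between cells or animals. A gene with no UMI in the members may have been at up to 4.89 CPM, the level of 3 counts in their 613090 UMIs.

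Nos2 encodes inducible nitric oxide synthase, which is transcribed at a low level in resting cells and strongly after stimuli such as interleukin-1, tumour necrosis factor or bacterial products, and makes nitric oxide from arginine. Cxcl2 and its neighbour Cxcl1 encode chemokines that bind CXCR2 on neutrophils, and Mmp3 encodes stromelysin-1, a secreted protease that cleaves proteoglycans and activates other matrix proteases. Joint-lining fibroblasts and chondrocytes are known to make all of these in inflamed joints. Prg4 encodes lubricin, the lubricating proteoglycan of the cartilage surface and the synovial lining.

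Nos2, Cxcl2 and Mmp3 lie on 3 chromosomes of the GRCm38 build, and all are protein coding. Nos2 is at chr11:78920787-78960254 on the plus strand and Mmp3 at chr9:7445822-7455975 on the plus strand. Cxcl2 (chr5:90903871-90905938, plus strand) follows Cxcl1 (chr5:90891241-90893115, plus strand) on the same chromosome. Cxcl2 and Mmp3 are the secreted genes whose presence the rule asked for, and Cxcl1 is the chemokine gene found with them. For this reason the promoters of Cxcl1, Cxcl2 and Mmp3 are shown. Each runs 5′ to 3′ on the plus strand from 250 bases before the start of transcription to 50 bases after it, in RefSeq sequence of GRCm38.p6. Capitals mark matches on either strand to the NF-κB consensus or to the AP-1 letters TGANTCA, which in RefSeq promoters of the same length matched in 4.51% and 7.81% of 32851 promoters.

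Cxcl1 promoter, chr5:90890995-90891294: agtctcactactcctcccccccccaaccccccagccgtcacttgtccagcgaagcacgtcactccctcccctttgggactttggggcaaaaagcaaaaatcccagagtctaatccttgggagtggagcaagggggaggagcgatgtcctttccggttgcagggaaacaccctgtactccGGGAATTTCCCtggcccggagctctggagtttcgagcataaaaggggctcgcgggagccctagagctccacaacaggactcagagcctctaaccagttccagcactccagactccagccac
Cxcl2 promoter, chr5:90903649-90903948: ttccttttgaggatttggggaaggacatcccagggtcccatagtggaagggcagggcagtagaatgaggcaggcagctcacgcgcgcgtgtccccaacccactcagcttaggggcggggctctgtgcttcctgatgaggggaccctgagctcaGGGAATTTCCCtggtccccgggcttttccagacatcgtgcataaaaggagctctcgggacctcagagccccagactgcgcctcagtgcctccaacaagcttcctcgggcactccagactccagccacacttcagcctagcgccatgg
Mmp3 promoter, chr9:7445572-7445871: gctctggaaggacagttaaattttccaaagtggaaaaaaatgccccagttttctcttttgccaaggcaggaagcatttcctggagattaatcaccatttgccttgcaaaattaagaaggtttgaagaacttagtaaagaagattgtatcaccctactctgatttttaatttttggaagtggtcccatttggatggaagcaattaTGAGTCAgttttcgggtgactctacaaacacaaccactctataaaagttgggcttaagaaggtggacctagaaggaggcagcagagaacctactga

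The NF-κB consensus matched once per strand, in overlapping windows, within the same run GGGAATTTCCC of both chemokine promoters. The match began 71 bases before the start in Cxcl1 and 97 bases before it in Cxcl2. In Mmp3 the match was to the AP-1 letters, with G at the free position, beginning 46 bases before the start. The promoters of Lcn2, Inhba and Ptgs2 in the same table held neither pattern in this window, and that of Tlr2 held 3 NF-κB matches. These are matches of letters and not measured binding sites.

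Within the members, the rule genes spread over a wide range, and these cells, chosen for Nos2, held most of the Nos2 signal of the library. Nos2 ran from 1 to 39 UMIs per member with a median of 5, 12 members held a single Nos2 UMI and 16 held 10 or more. Members held 564 of the 861 Nos2 UMIs in the kept barcodes of replicate 1 (65.5%). Mmp3 ran from 0 to 296 UMIs with a median of 14 and was found in 59 members, and Cxcl2 ran from 0 to 301 UMIs with a median of 0 and was found in 30. Both were found in 21 members, Mmp3 without Cxcl2 in 38 and Cxcl2 without Mmp3 in 9. By the rule every member held Nos2, and every member without Cxcl2 held Mmp3. Cxcl2 was found in fewer members than Mmp3, and 20 members had 10 or more Cxcl2 UMIs. As a measure of free RNA in the droplets, barcodes with 10 or more Cxcl12 UMIs, whose median depth was 6188 UMIs against 7586 in members, held a Nos2 UMI in 4 of 624 cases (0.641%).

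**Figure D1:**
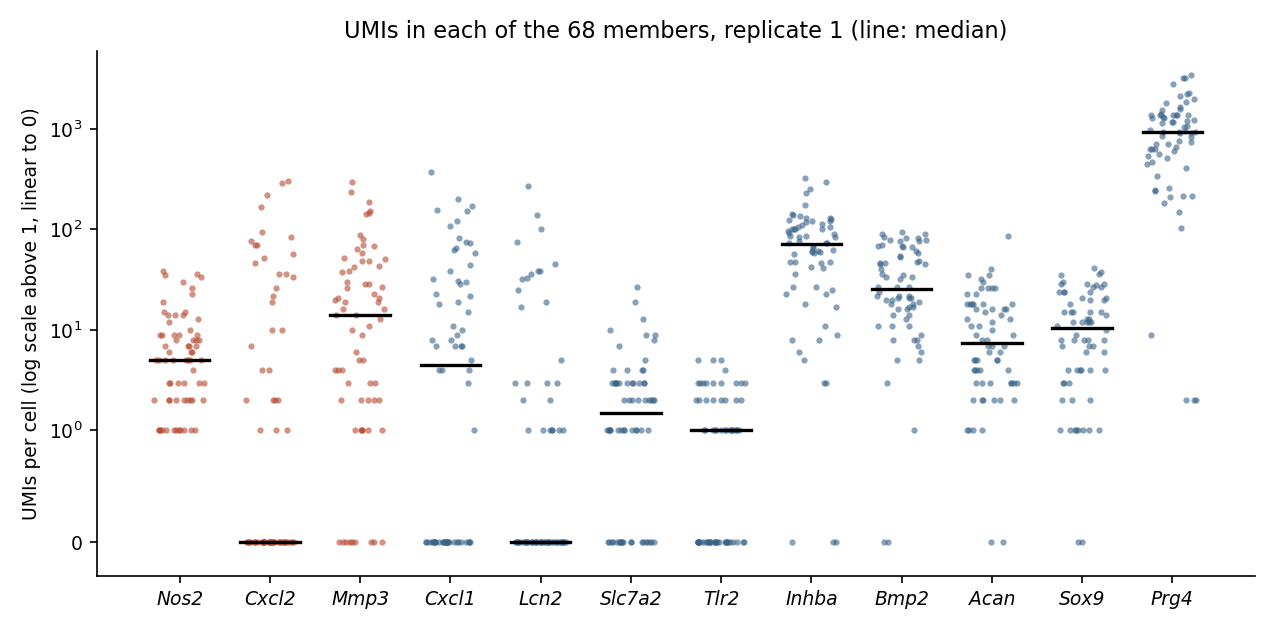
UMIs of 12 genes in each of the 68 members of replicate 1, on an axis that is logarithmic above 1 UMI and linear to 0. Each point is a cell, the line is the median, and Nos2, Cxcl2 and Mmp3 are in red. Prg4, Inhba and Bmp2 were found in nearly every member (medians 930, 71 and 25.5 UMIs), whereas Cxcl2 and Lcn2 had a median of 0 and reached 301 and 272 UMIs in single cells.

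The cells carried the 3 genes they are named for by choice. Outside the rule they held cartilage markers and, of 7 listed markers of the cartilage surface and synovial lining, mainly Prg4 and Cilp. All 68 members had at least 3 of the 10 listed cartilage markers, against 40.2% of the other stromal barcodes of replicate 1. All 253 Prg4-rich cells without Nos2, chosen partly by Acan and Sox9 of this list, had them as well. Acan, which encodes the cartilage proteoglycan aggrecan, and Sox9, the transcription factor of chondrocytes, were each found in 66 members. Prg4 reached 115592 CPM in the sum of the members, and its count ran from 2 to 3475 UMIs per cell with a median of 930. It made up as much as 33% of the UMIs of a member. 64 members had at least 100 Prg4 UMIs, and the other 4 had fewer than 10. Cilp, a cartilage matrix protein, was found in 65 members at 5567 CPM, and Dcn, the small proteoglycan decorin, in all 68 at 21679 CPM. Prg4 and Cilp gave nearly all of the 121659 CPM of the surface list. At least 3 of its 7 markers were found in 38 members (55.9%). This was so in 30.5% of the other stromal barcodes and 75.5% of the Prg4-rich cells without Nos2 described further on. Barcodes with Ptprc, which should lack Prg4, held it at 821 CPM, with at least 1 UMI in 77.9% of barcodes at a median depth of 21485 UMIs. After thinning every cell to 2000 UMIs a Prg4 UMI was left in 15% of those barcodes and in 97.1% of members.

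Most markers of blood cells and of vessel endothelium were at or near 0 in the members, and those of fibroblasts and osteoblasts were found in some. Of 8 pan-leukocyte markers 6 had no UMI in any member. The list summed to 11.4 CPM in members, against 249 CPM in the other stromal barcodes and 9.36 CPM in Prg4-rich cells without Nos2. No member had 3 markers of the macrophage, neutrophil, dendritic, endothelial, mural, tendon or reticular lists. The reticular list was not lower in members, with a sum of 188 CPM against 177 CPM in the other stromal barcodes and 174 CPM in Prg4-rich cells without Nos2. The mural list summed to 135 against 650 and 323 CPM, and the tendon list to 129 against 783 and 377 CPM. Il1b, Tnf, Laptm5, Acta2, Myh11, Tnmd and Adipoq had no UMI in the members. Cd14, the co-receptor for bacterial lipopolysaccharide that is often used as a monocyte marker, was the exception on the macrophage list, at 1068 CPM in 60 members, against 925 CPM in Prg4-rich cells without Nos2 and 68.4 CPM in Ptprc barcodes. Alcam, the sort marker, was found in 3 members and in none of the 253 Prg4-rich cells without Nos2 described further on. 1 member held all 67 Pf4 and all 18 Ppbp UMIs, which mark platelets and their precursors, and 1 held 44 of the 49 Camp UMIs, a neutrophil granule gene. Of the 8 fibroblast markers, which include Dcn, every member had at least 1, and 9 members had 3 or more (13.2%, against 7.91% of the Prg4-rich cells without Nos2). 6 members had at least 3 of 9 osteoblast markers, against 15 of 253 of the Prg4-rich cells without Nos2, and the list summed to 2518 CPM against 1985 CPM. Of its 5 callable genes 1 was more than 4-fold higher than in those cells, Bglap, with 21 UMIs in 3 members. Ibsp, the bone sialoprotein gene, ran from 0 in 49 members to 642 UMIs in 1 of them. The part of these few cells in the values of other genes was not tested.

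Members were then set against the other stromal barcodes of replicate 1, which met the same limits on Ptprc and Cxcl12 (1690 barcodes, median 4998 UMIs, among them all cells with Nos2 that lacked Cxcl2 and Mmp3), as a description of the same library and with no test. A gene was called where its CPM differed more than 4-fold and the higher side would give at least 20 UMIs in the members. Of 5009 genes that could be called, 2.1% were higher and 10.1% lower in members. The comparator was mixed: Igkc, an antibody light chain made by plasma cells, stood at 83008 CPM in it and at 6107 CPM in members, where 1 cell held 3563 of the 3744 UMIs. Several of the lowest genes in the members are known from other cell types. Blvrb, an enzyme of haem breakdown abundant in red cell precursors, was at 11.4 CPM in members against 448 CPM. Slpi, Ly6e, Ighg2b, Igkc and Col1a1 were 11.2-fold to 16.9-fold lower, and the non-coding Gm26917 was 34.3-fold lower. Ezh2, Irf1 and Ncoa1 were 16.9-fold, 12.1-fold and 11.1-fold lower.

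For this reason a second comparator was chosen after seeing the data: cells of replicate 1 with at least 1 UMI each of Acan and Sox9, at least 100 Prg4 UMIs, no Nos2 UMI and the same limits on Ptprc and Cxcl12. They are a subset of the other stromal barcodes. There were 253 of these Prg4-rich Nos2-negative cells, with a median of 6713 UMIs, and 61 of the 68 members met the same limits on Acan, Sox9 and Prg4. Summed levels of cartilage genes in the members lay close to those of these cells, including genes that had no part in choosing them. Comp, which encodes a cartilage matrix protein, was at 3481 CPM in members and 3358 CPM in these cells, and Col2a1 at 696 and 647 CPM. Both sums rested on few members, as 3 cells held 55.8% of the Comp UMIs and 59.5% of the Col2a1 UMIs. The medians were 5.5 and 1 UMIs per member. Col2a1 was found in 58.8% of members and 73.5% of these cells. Acan, used in the choice, was at 1351 CPM in members and 1248 CPM in these cells (ratio 1.08, 95% interval 0.998 to 1.17), and Prg4, also used, at 115592 and 137462 CPM. None of the 8 cartilage markers that could be called passed 4-fold, but Acan and Sox9 of that list were used in the choice. So few genes of any kind passed that this count does not set the cartilage markers apart. Over all 4155 genes that could be called 1.06% were higher and 0.915% lower in members, 44 and 38 genes. The median log2 ratio over those genes was 0.06.

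The gene that stood furthest from the Prg4-rich Nos2-negative cells, outside the rule and among genes found in at least 25% of members, was Cxcl1. It was at 3429 CPM in members and 77.1 CPM in those cells, a ratio of 44.5 (37.5 to 53.2), and 27.0 against the other stromal barcodes. Neither comparator was required to hold Cxcl2 or Mmp3, as members were, and 1895 of the members' 2102 Cxcl1 UMIs lay in cells with Cxcl2. The choice of members thus enters these ratios. Against cells with Cxcl2 or Mmp3 but no Nos2, the counterparts described further on, the Cxcl1 ratio was 10.1. Cxcl1 ran from 0 to 377 UMIs per member with a median of 4.5 and was found in 39 of them, and 26 members had 10 UMIs or more. Cxcl12-high barcodes also held Cxcl1, at 1134 CPM in 303 of 624. Of the 6 neutrophil-attracting CXC chemokines on the list, Cxcl1 and Cxcl2 were the 2 that could be called, and both were higher than in either comparator, Cxcl2 by the choice. Cxcl3 and Cxcl5 had 3 and 2 UMIs in members.

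Genes that feed nitric oxide synthesis accompanied Nos2 unevenly. Slc7a2, which encodes a transporter that brings arginine into the cell, was at 312 CPM in members and was found in 48 of them. It was at 68.3 CPM in the Prg4-rich Nos2-negative cells, a ratio of 4.56 (3.62 to 5.77), and 39.9 CPM in the other stromal barcodes. Gch1, which makes the first step towards the cofactor tetrahydrobiopterin, was found in 51 members at 197 CPM, against 134 CPM in the Prg4-rich Nos2-negative cells (ratio 1.47, 1.17 to 1.83) and 57.6 CPM in the other stromal barcodes. Ass1, which regenerates arginine from citrulline, was at 89.7 CPM against 62.2 and 22.3 CPM. Of 15 listed genes of nitric oxide and arginine metabolism 7 could be called against the other stromal barcodes, and 3 were more than 4-fold higher and none lower, namely Nos2, by the choice, Slc7a2 and Ass1. Against the Prg4-rich Nos2-negative cells 2 of 8 were higher, Nos2 by the choice and Slc7a2. Over all callable genes 2.1% and 1.06% were higher in the 2 comparisons. The median log2 ratios of the list, Nos2 included, were 1.78 and 0.54, beside -0.21 and 0.06 for all genes. Nos1 and Nos3, the other nitric oxide synthases, had no UMI in members.

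**Figure D2:**
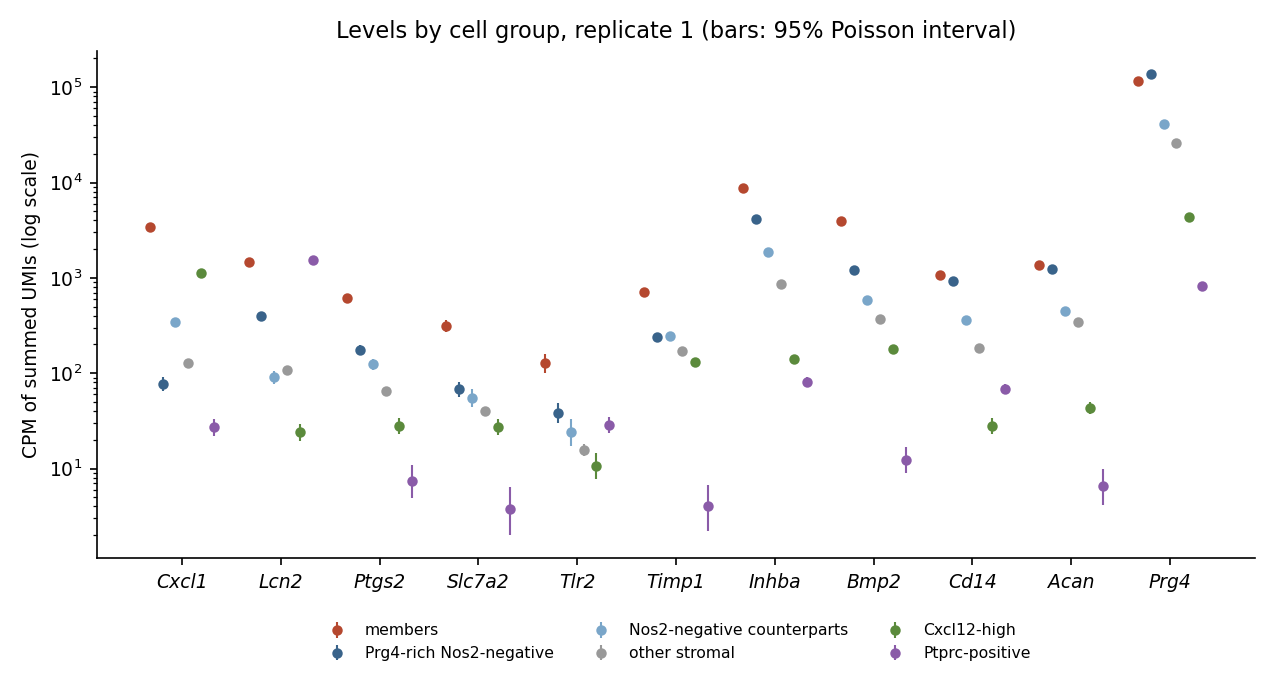
CPM of summed UMIs (logarithmic axis) of 11 genes in the members and 5 other groups of replicate 1; bars are 95% Poisson intervals and cover counting error only. Cxcl1 lay at 3429 CPM in members and 77.1 CPM in Prg4-rich Nos2-negative cells, whereas Acan lay at 1351 and 1248 CPM.

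Among the genes with large ratios were 4 growth factor genes of the transforming growth factor and bone morphogenetic protein family, named for these ratios and not as a list; Tgfb2 alone of them passed 4-fold against the Prg4-rich Nos2-negative cells. Inhba, which encodes the activin A subunit, was found in 65 members at 8826 CPM, ran from 0 to 323 UMIs with a median of 71, and was at 4160 CPM in the Prg4-rich Nos2-negative cells (ratio 2.12, 2.05 to 2.20). Bmp2, an inducer of bone and cartilage formation, was found in 66 members at 3950 CPM with a median of 25.5 UMIs, against 1195 CPM (ratio 3.31, 3.119 to 3.505). Both were more than 10-fold higher than in the other stromal barcodes, where they stood at 860 and 367 CPM. Bmp6 was at 453 CPM against 117 CPM in the Prg4-rich Nos2-negative cells. Tgfb2 was at 532 CPM against 107 CPM, and 1 member held 39.9% of its UMIs. Tll1, an astacin protease related to the procollagen C-proteinase, was at 101 CPM against 33.04 CPM. Inhba and Bmp2 thus were also high in the Nos2-negative cells, and Inhba differed less between members and those cells than Cxcl1 did. Bmp6 and Tgfb2 in those cells, at 117 and 107 CPM, lay nearer to the other stromal barcodes, at 67.35 and 91.69 CPM.

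The wider inflammatory lists split. Of 18 listed cytokines 9 had no UMI in members, among them Il1b, Tnf, Csf3, Il33 and Tnfsf11, and Il6 had 8 UMIs in 2 cells. Csf2, which encodes the granulocyte and macrophage growth factor GM-CSF, had 69 UMIs in 5 members, 24 of them in 1 cell. It had none in the Prg4-rich Nos2-negative cells, so that the members' 113 CPM was at least 68.1-fold higher, with 3 counts over that group as the limit. Lif and Il11, both of the interleukin-6 family, were at 163 and 83.2 CPM against 94.2 and 43.5 CPM in the Prg4-rich Nos2-negative cells, and 5.25-fold and 5.14-fold above the other stromal barcodes; 1 member held 47.1% of the Il11 UMIs. Of 15 chemokines outside the neutrophil group, 9 had no UMI. Of 5 callable against the other stromal barcodes 1 was more than 4-fold higher and 1 lower, with a median log2 ratio of 1.38 beside -0.21 for all genes. Of 4 that could be called against the Prg4-rich Nos2-negative cells 2 were higher, Ccl2 and Cxcl10, each through 1 cell, with a median log2 ratio of 1.67 beside 0.06 for all genes. Ccl2, the monocyte chemokine, reached 153 CPM, but 1 member held 86 of its 94 UMIs, and 1 member held 22 of the 27 Cxcl10 UMIs. Interferon-induced genes were low in members. Of 18 genes 9 had no UMI, and the summed level was 50.6 CPM in members, against 436 CPM in the other stromal barcodes and 85.4 CPM in the Prg4-rich Nos2-negative cells. Irf1, an interferon-induced transcription factor, was at 8.16 CPM against 98.9 and 35.2 CPM.

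Receptors and NF-κB genes lay nearer to the comparators. Tlr2, a receptor for bacterial lipoproteins, was found in 37 members at 127 CPM, against 38.5 CPM in the Prg4-rich Nos2-negative cells (ratio 3.30, 2.36 to 4.62) and 15.7 CPM in the other stromal barcodes, and was the only gene of the 8 callable in its list to pass 4-fold against the other stromal barcodes. Il1r1 and Tnfrsf1a, receptors for interleukin-1 and tumour necrosis factor, were at 75.03 and 66.9 CPM, against 61.7 and 56.2 CPM in the Prg4-rich Nos2-negative cells. Of 15 callable NF-κB factors and feedback genes none passed 4-fold against the Prg4-rich Nos2-negative cells, and their median log2 ratio was 0.62 beside 0.06 for all genes. Among them Nfkbia, the inhibitor that is itself an NF-κB target, was at 1253 against 859 CPM, and Nfkbiz, a cofactor for a subset of targets, at 522 against 312 CPM. Sod2, the mitochondrial superoxide dismutase, was at 254 against 77.1 CPM (ratio 3.30, 2.61 to 4.18).

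Acute-phase, prostaglandin and hyaluronan genes were carried by part of the members. Lcn2, which encodes the iron-siderophore binder lipocalin-2, was at 1471 CPM in members, 398 CPM in Prg4-rich Nos2-negative cells and 107 CPM in the other stromal barcodes, and at 1521 CPM in the Ptprc barcodes. It was found in 27 members, and 1 cell with 272 UMIs held 30.2% of the total. Ptgs2, the inducible cyclooxygenase of prostaglandin synthesis, was found in 26 members at 618 CPM, with 103 of 379 UMIs in 1 cell. Pla2g4a, the phospholipase that frees arachidonic acid, was at 191 CPM against 10.5 CPM in Prg4-rich Nos2-negative cells, in 12 members, with 48.7% of its UMIs in 1 cell. The hyaluronan synthases Has1 and Has2 were at 439 and 134 CPM against 196 and 44.6 CPM, and Tnfaip6, which encodes a hyaluronan-binding protein, at 527 against 382 CPM. Of 8 callable prostaglandin and hyaluronan genes 5 were more than 4-fold higher than in the other stromal barcodes. Against the Prg4-rich Nos2-negative cells only Pla2g4a was. Over all callable genes 2.1% and 1.06% were higher. The median log2 ratios of the list were 2.42 and 1.18, beside -0.21 and 0.06 for all genes.

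Among matrix proteases Mmp3, which was high by the choice, was nearly alone. Mmp8, Mmp9, Mmp10, Mmp11, Mmp12, Mmp13 and Mmp19 had no UMI in members. For Mmp13, the main collagenase of cartilage, this was at least 38.3-fold below the 188 CPM of the other stromal barcodes. Of 10 callable genes of the protease and inhibitor list 2 were more than 4-fold higher and 4 lower than in those barcodes. Against the Prg4-rich Nos2-negative cells 1 of 6 was higher and 0 were lower, so low Mmp13 did not set members apart from them. Over all callable genes 10.1% and 0.915% were lower. Mmp2 and Mmp14 had 2 and 8 UMIs. Adamts5, the aggrecan-cleaving protease, was at 84.8 CPM against 67.2 CPM in the Prg4-rich Nos2-negative cells. Timp1, an inhibitor of these proteases, was found in 48 members at 718 CPM against 240 CPM (ratio 2.99, 2.61 to 3.42), whereas Timp2 and Timp3 were at 205 and 675 CPM against 285 and 992 CPM.

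Further genes high in members were mixed in function. The fixed rule on size named Slc39a2, Plk2, Tm4sf1, Sbsn and Dmkn by their ratios to the other stromal barcodes. Cd44, Tead1 and Mthfd2 were named by the comparator chosen after seeing the data. Their ratios to the other stromal barcodes were 1.97, 3.07 and 2.07. Slc39a2, a zinc importer, was at 81.6 CPM against 11.0 CPM in the Prg4-rich Nos2-negative cells (ratio 7.41, 4.33 to 13.1). Plk2, a kinase induced by stress, was at 162 against 31.9 CPM and Tm4sf1, a membrane protein, at 1704 against 514 CPM. Sbsn and Dmkn, neighbouring genes first known from skin, were at 392 and 108 CPM against 171 and 33.6 CPM. Cd44, the hyaluronan receptor, was at 310 against 77.6 CPM, Tead1, a partner of the YAP cofactor, at 250 against 54.0 CPM, and Mthfd2, a mitochondrial folate enzyme, at 88.1 against 22.03 CPM. Krt16 and Sfn, which mark another chondrocyte state of these libraries, were at 37.5 and 175 CPM in members against 57.3 and 74.3 CPM, and 1 member held 57.0% of the Sfn UMIs.

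Immediate early genes, which cells switch on within minutes of many stimuli including dissociation, were not raised together in members. Fos was at 117 CPM in members against 990 CPM in the Prg4-rich Nos2-negative cells and 1009 CPM in the other stromal barcodes, 8.43-fold and 8.59-fold lower. Egr1 was at 201 against 732 and 644 CPM, and Nr4a1 at 57.1 against 194 and 176 CPM. Ier3 went the other way, at 3546 against 2646 and 885 CPM, and Fosl1 was at 116 against 64.4 and 28.8 CPM. Of 18 listed genes 1 was more than 4-fold lower and none higher than in the Prg4-rich Nos2-negative cells. The heat shock genes Hspa1a and Hspa1b were at 235 and 65.2 CPM, against 355 and 162 CPM in the Prg4-rich Nos2-negative cells. Against the other stromal barcodes 2 genes of the list were more than 4-fold higher, Ier3 and Fosl1, and 4 were lower. The median log2 ratio of the list was -0.99 in both comparisons, beside -0.21 and 0.06 for all genes. Gas1, a growth-arrest gene and hedgehog co-receptor, and Ogn, the small proteoglycan osteoglycin, were 4.43-fold and 5.45-fold lower than in the Prg4-rich Nos2-negative cells. Cell cycle genes were sparse in members and in the Prg4-rich Nos2-negative cells alike. The list summed to 207 and 182 CPM in them, against 1079 CPM in the other stromal barcodes. Of 12 listed cell cycle genes 5 had no UMI in members, and Mki67 had 2. Pcna, which also serves in DNA repair, was at 170 CPM in members against 103 CPM in the Prg4-rich Nos2-negative cells. Glycolysis and hypoxia genes lay close to the Prg4-rich Nos2-negative cells, with a median log2 ratio of -0.24 over 11 callable genes and none past 4-fold.

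The members were not alike in the chemokines. Of the 30 members with a Cxcl2 UMI, 25 had a Cxcl1 UMI, against 14 of 38 without Cxcl2, and the former held 1895 of the 2102 Cxcl1 UMIs (90.2%). All 20 members with at least 10 Cxcl2 UMIs held Cxcl1. Across the 68 cells the shares of UMIs from Cxcl2 and Cxcl1 had a Spearman correlation of 0.70. These cells share 1 library and differ in depth, and the values are a description. The split by Cxcl2 had about equal depths, with medians of 7610 and 7360 UMIs. Slc7a2 was at 501 CPM with Cxcl2 and 171 CPM without (ratio 2.94, 2.15 to 4.06), and Dcn at 32242 and 13829 CPM. Lcn2 was at 1913 and 1143 CPM, and Bmp2 at 3918 and 3975 CPM.

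**Figure D3:**
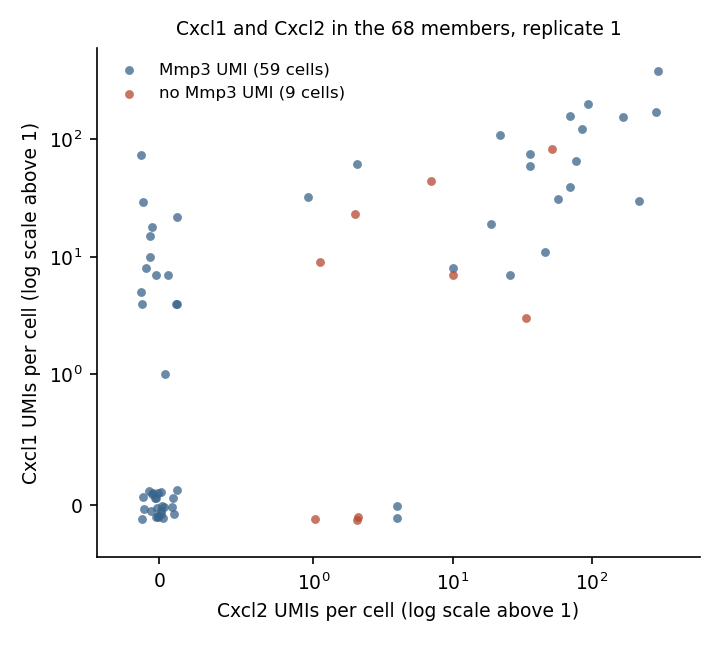
Cxcl1 against Cxcl2 UMIs in the 68 members of replicate 1, on axes that are logarithmic above 1 UMI and linear to 0, with points below 3 UMIs jittered; colour marks whether the cell had an Mmp3 UMI. Members with 10 or more Cxcl2 UMIs (20 cells) all held Cxcl1, while 14 of the 38 without Cxcl2 did.

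Some genes separated the members without Cxcl2 by a few cells. Ibsp was at 3821 CPM without Cxcl2 and 26.8 CPM with it, and Col2a1 at 1063 and 203 CPM. In the split by Mmp3, Ibsp was at 2515 CPM in the 59 members with Mmp3 and 38.9 CPM in the 9 without, but 3 cells held 88.1% of the former. Igkc and Ighg2b, the antibody genes, also differed, at 6945 and 2562 CPM with Mmp3 against 285 and 246 CPM without, but 1 member held 95.2% and 91.4% of all their UMIs in members. Msmp, Tmsb4x and Tgfb2 were higher with Mmp3 as well, with 73.2%, 92.2% and 68.8% of the UMIs in 3 cells. The 9 members without Mmp3 were in the set only because they had Cxcl2, so the rule shapes this split. Inhba was at 9321 and 5389 CPM, Cd14 at 1140 and 570 CPM, and Acan at 1261 and 1969 CPM. Dcn was at 19804 and 34693 CPM. Serpina3n, an acute-phase protease inhibitor, was lower with Mmp3, at 164 against 829 CPM, and Sfn at 84.0 against 803 CPM. With 9 cells on 1 side these differences rest on few cells.

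Levels in the cells just inside and outside the thresholds were not all ordered by Nos2. The 12 members with 1 Nos2 UMI had Mmp3 at 1503 CPM, Cxcl1 at 3509 CPM, Inhba at 9484 CPM and Prg4 at 118851 CPM, and the 40 members with 5 or more had these at 5577, 3868, 9377 and 121639 CPM. The Cxcl1 level of the former rested on 1 cell, with 377 of their 390 UMIs, and 4 of the 12 had any. Timp1 was at 171 CPM in the former and 1111 CPM in the latter. The 16 members with 2 to 4 Nos2 UMIs had Mmp3 and Timp1 at 1617 and 205.5 CPM, between those values. Their Cxcl1, Inhba and Prg4, at 2346, 7059 and 99118 CPM, were below both. Outside the rule, 52 cells had Nos2 but neither Cxcl2 nor Mmp3, at 627 CPM of Nos2, with Prg4 at 98096 CPM, Lcn2 at 1257 CPM, Timp1 at 1296 CPM and Cxcl1 at 831 CPM. The 195 counterparts with Cxcl2 or Mmp3 but no Nos2 had Prg4 at 40939 CPM and Acan at 450 CPM, and Igkc at 52540 CPM, so they were a more mixed set. Of 5034 genes that could be called against these counterparts 0.973% were higher and 9.87% lower in members; Lcn2, Slc39a2 and Cxcl1 had the largest ratios among genes found in at least 25% of members outside the rule (16.2, 14.97 and 10.1). Cxcl12, limited by the rule to fewer than 10 UMIs, had at most 4 UMIs in a member and was found in 9.

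The share of Prg4-rich cells with Nos2 differed between libraries. Of cells with the same limits on Acan, Sox9, Prg4, Ptprc and Cxcl12, replicate 1 held 353, of which 100 had a Nos2 UMI (28.3%, exact binomial interval 23.7% to 33.3%). In replicate 2 it was 19 of 1271 (1.49%, 0.902% to 2.32%) and in replicate 3 it was 52 of 1929 (2.70%, 2.02% to 3.52%). In the order of the replicates, these cells had medians of 6841, 10390 and 6627 UMIs. With every cell thinned to 2000 UMIs the shares were 18.2%, 0.633% and 0.952%. The intervals of replicate 1 did not overlap those of the other libraries, but each value is 1 library, and an animal, a preparation and a library cannot be told apart in this design.

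**Figure D4:**
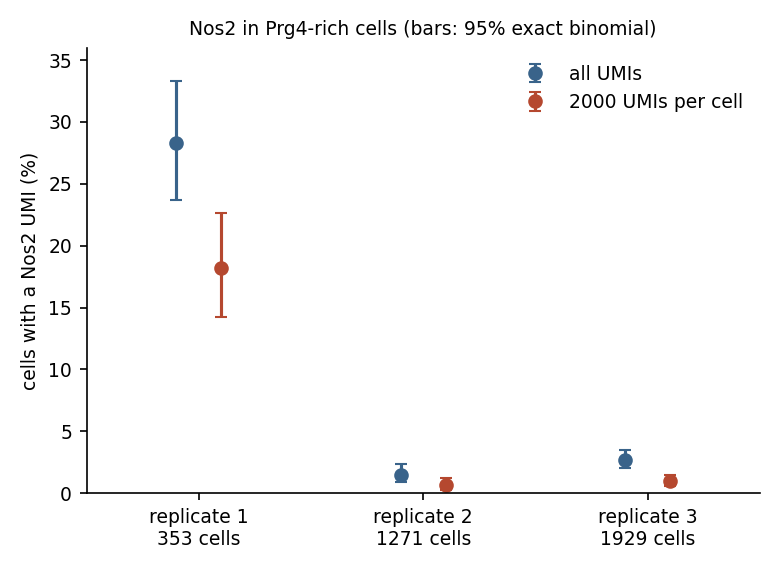
Percent of Prg4-rich cells (Acan and Sox9 at least 1 UMI, Prg4 at least 100) with a Nos2 UMI in each library, at full depth and with every cell thinned to 2000 UMIs; bars are exact binomial 95% intervals. Replicate 1 lay at 28.3% and 18.2%, and replicates 2 and 3 under 3% in both.

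The Nos2-negative cells of the same kind also differed between libraries in several of the genes above. Inhba was at 4160 CPM in those of replicate 1 and at 374 and 472 CPM in those of replicates 2 and 3, Bmp2 at 1195 against 310 and 428 CPM, Cd14 at 925 against 113 and 139 CPM, and Lcn2 at 398 against 23.2 and 29.2 CPM. Col2a1 went the other way, at 647 against 14874 and 12808 CPM, while Acan was at 1248, 1747 and 1871 CPM and Sox9 at 1973, 1622 and 1991 CPM. Among these genes Acan and Sox9 differed by less than the others between libraries. Whether the Col2a1 difference bears on the share with Nos2 was not tested.

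The 9 and 22 cells that met the rule in replicates 2 and 3 shared part of the pattern, and 6 and 14 of them met the limits on Acan, Sox9 and Prg4. None of the 9 (0 CPM, 95% upper limit 19.1) and 3 of the 22 had Cxcl2, so they met the rule mostly through Mmp3. Nos2 was at 134 and 180 CPM in them, against 920 CPM in the members of replicate 1, and Mmp3 at 264 and 768 CPM against 3864 CPM. Set against the Prg4-rich Nos2-negative cells of their own library, Cxcl1 was 11.1-fold (7.41 to 16.2) and 12.2-fold (9.12 to 16.1) higher, Inhba 2.44-fold and 3.07-fold, and Timp1 9.81-fold and 2.98-fold. Tgfb2 was 3.55-fold and 3.42-fold higher and Bmp6 2.18-fold and 2.90-fold. Bmp2 was lower in replicate 2, with a ratio of 0.650 (0.462 to 0.890), and higher in replicate 3, at 2.03. The interval of Slc7a2 included 1 in replicate 2 (1.15, 0.420 to 2.53) and not in replicate 3 (3.51, 2.32 to 5.12). Col1a1, a collagen of bone and fibrous tissue, was at 10889 against 529 CPM in replicate 2, in 4 of the 9 cells, and at 2536 against 473 CPM in replicate 3, in 10 of the 22. Chil1, which encodes a secreted chitinase-like protein, was 13.9-fold higher in replicate 2 and had a ratio of 0.894 in replicate 3. The part of Col1a1-rich cells in the other ratios was not tested. These cells had deeper counts than their comparators, with medians of 14042 and 10232 UMIs against 10333 and 6613, and with 9 cells a ratio can rest on 1 of them.

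**Figure D5:**
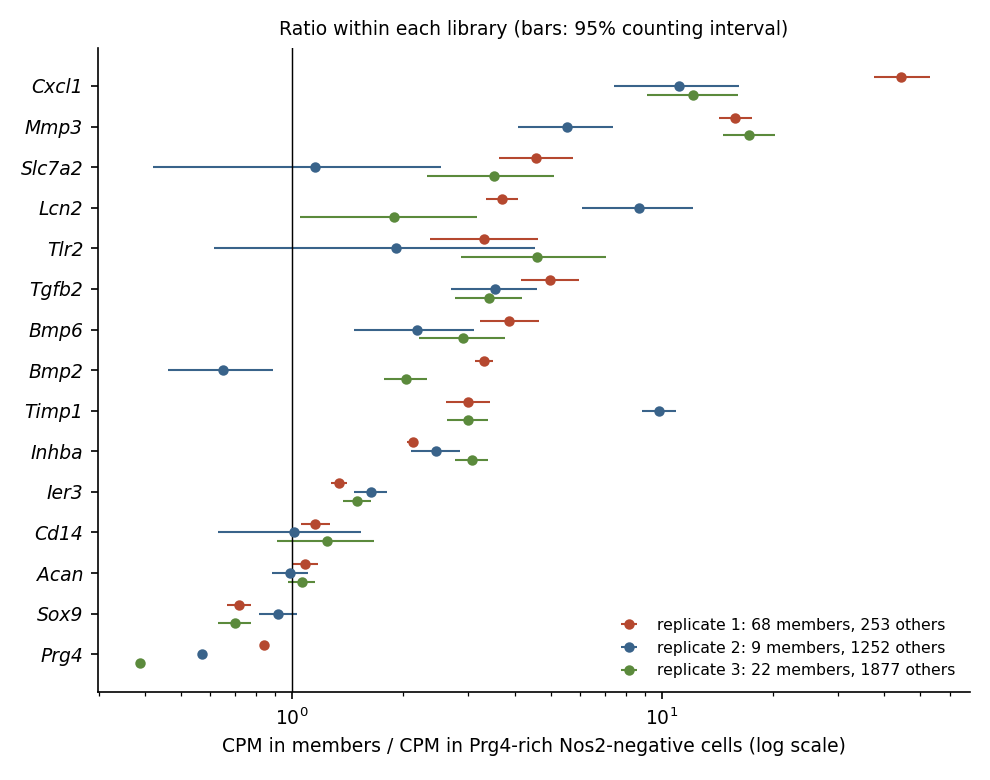
Ratio of CPM in cells that met the rule to CPM in Prg4-rich Nos2-negative cells of the same library, for 15 genes on a logarithmic axis; colours mark the libraries and bars are 95% counting intervals. Cxcl1 lay above 10 in all 3 libraries (44.5, 11.1 and 12.2), Bmp2 lay on both sides of 1, and Acan lay near 1.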

How the data were processed

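Droplet single-cell RNA-seq was measured in 3 libraries of sorted BLCs. The authors aligned reads to mm10 (GRCm38) with Cell Ranger (version 7.1.0), and deposited UMI counts of 32285 genes without normalization, beside lists of genes and barcodes. Totals were 20985636, 79905165 and 69890252 UMIs. The study states more cells than the barcodes analysed here. Members and gene lists were chosen with earlier results of these data known. Cells were summed per group and scaled to CPM in Python (numpy 2.4.6, scipy 1.17.1), and no test was made, because members were chosen by the same values. Intervals are 95%; a count of 0 was set to 3 counts for a bound. The ratio calls were tested on simulated data. Named genes were those of the rule, up to 6 per list by level plus those past 4-fold, the 15 highest and 10 lowest ratios, and 8 per direction in the split of members by Mmp3, among genes in at least 25% of cells. The genes of the split by Cxcl2, Ppbp, and the Prg4-rich comparator with its genes were chosen after their values were seen. 1 gene that the rule names is not reported here. Doublets were kept; of the 51 barcodes with the highest Scrublet scores (scanpy 1.11.5) none was a member. Thinning drew 2000 UMIs per cell. Alternatives were other limits of the rule, filters, folds and totals.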

Additional observations from a re-analysis of the deposited data

How the results depend on the processing

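The number of members, 68 in replicate 1, stayed at 56 to 69 under most alternatives, and fell to 21 where Cxcl2 and Mmp3 were both required and to 39 with every barcode thinned to 2000 UMIs. Over all libraries, leaving out each replicate in turn gave 31 to 90 members instead of 99, the 31 being without replicate 1. Against the other stromal barcodes, 105 genes were past 4-fold higher and 506 lower; thinning gave 33 and 59, no minimum beyond 1 UMI gave 654 and 1416, a 2-fold limit gave 499 and 1142, and requiring both Cxcl2 and Mmp3 gave 130 lower. Against the Prg4-rich Nos2-negative cells, 44 and 38 genes became 25 and 41 where members were held to the same limits on Acan, Sox9 and Prg4, 13 and 11 with thinning, 406 and 368 with no minimum and 255 and 244 at 2-fold, all alternatives chosen after seeing the data. Of 120 levels recomputed for 10 genes, 8 moved by over 1.5 times: requiring both genes put Cxcl2 at 8894, Cxcl1 at 9377, Mmp3 at 7683, Lcn2 at 2427 and Slc7a2 at 614 CPM, and thinning put Nos2 at 1641, Mmp3 at 6423 and Ptgs2 at 282 CPM. The causes were not tested. The labels give 1 group, so no groups are paired by replicate number; ratios within each library were given without a test. Precision was limited by 68 cells and 613090 UMIs in 1 library, where a single cell could hold a large share of a gene.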
